A study of Mus musculus with 8 samples.

Results

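The DnaJ family holds the J-domain co-chaperones, and its members were taken as every row of the deposited gene table whose symbol is Dnaja, Dnajb or Dnajc followed by a number. The rule found 45 genes of 22274, with 4 of class A, 13 of class B and 28 of class C. A J-domain protein brings an unfolded client to an HSP70 chaperone and stimulates HSP70 to split ATP, which locks the client in place, and a nucleotide exchange factor then frees it. Classes A and B share the layout of the bacterial DnaJ protein in full or in part, and class C members carry a J-domain in otherwise unrelated proteins, often tied to 1 organelle or task. In fibroblasts and kidney epithelium these genes are expressed broadly, and several of those in the cytosol are textbook targets of the heat shock factor Hsf1, while several of those in the endoplasmic reticulum (ER) are targets of the unfolded protein response.

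The study sequenced RNA of mouse RFB cells, labelled as a kidney fibroblast line. In 4 libraries the cells had received TGF-β and chaetocin, and in the other 4 libraries TGF-β alone. TGF-β is the cytokine that drives matrix production in fibroblasts, and chaetocin is a fungal compound used against SUV39 family histone methyltransferases that is also known to act on thiol-dependent enzymes. All 8 libraries thus come from TGF-β-treated cells, no library describes cells without it, and doses, times and the number of separate cultures are not given in the labels. The p-values therefore measure the spread between these libraries, which may be technical. The series design text speaks of a SUV39H1 knockdown, which no label of these libraries names.

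Total counts were 14421225 to 22591935 with chaetocin and 20135312 to 23664084 with TGF-β alone, and the chaetocin library with the highest total was replicate 1. At these depths 3 counts, taken as the detection floor, came to 0.128 to 0.200 CPM (reads per library of standard size, after TMM scaling) with chaetocin and 0.132 to 0.155 CPM with TGF-β alone. Summed over 12 fibroblast markers the level was 17875 to 19315 CPM with chaetocin and 37786 to 39624 CPM with TGF-β alone, with 2 of the 11 tested markers higher and 6 lower. Fn1, the fibronectin gene, made up most of that sum, at a mean of 16316 CPM with chaetocin and 35963 CPM with TGF-β alone, so the sum is not a level of the whole list. Acta2, the next most abundant marker with chaetocin, was higher, at 1598 CPM with chaetocin and 1248 CPM with TGF-β alone. Vim was lower, at 442.1 CPM with chaetocin and 1163 CPM with TGF-β alone, as was Col1a1, at 58.1 CPM with chaetocin and 232.9 CPM with TGF-β alone. Lum, Dcn and Thy1 were low, at 3 to 7, 27 to 56 and 23 to 38 counts per library with chaetocin and 0 to 1, 1 to 4 and 19 to 35 counts with TGF-β alone. Dcn was called higher, but it passed the filter on low counts only through the chaetocin libraries, where it was high. Summed over 10 kidney epithelial markers the level was 7443 to 7745 CPM with chaetocin and 4738 to 4889 CPM with TGF-β alone, with 4 higher and 5 lower. Krt8 was at 3615 CPM with chaetocin and 1582 CPM with TGF-β alone, and Krt18 at 1783 and 812.4 CPM. The 5 lower genes, Cldn4, Cdh1, Pax8, Lrp2 and Aqp1, went against the sum, which is not a level of the whole list. The 7 leukocyte markers summed to 108.5 to 126.1 CPM with chaetocin and 108.4 to 130.2 CPM with TGF-β alone. Of the 5 tested, 3 were higher and 2 lower. Cd68 was at 34.2 CPM with chaetocin and 17.7 CPM with TGF-β alone, Adgre1 at 6.40 and 18.1 CPM, and Csf1r at 32.4 and 50.1 CPM. The 5 endothelial markers summed to 82.3 to 90.0 CPM with chaetocin and 50.8 to 57.2 CPM with TGF-β alone, with 4 higher and 1 lower. Kdr was at 29.6 CPM with chaetocin and 5.24 CPM with TGF-β alone, and the lower gene, Emcn, at 12.9 and 19.85 CPM. Neither sum is a level of its whole list. The part of these marker differences in the results on DnaJ genes was not tested, and in bulk RNA fewer cells of a type and less RNA per cell cannot be told apart.

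Of the 45 genes, 41 passed the filter on low counts and were tested. The others were Dnajb7 and Dnajb8, which are testis genes, and Dnajc5b and Dnajc5g, relatives of the vesicle protein gene Dnajc5. Dnajb8 and Dnajc5g each had 1 count over the 4 chaetocin libraries and 0 over the 4 TGF-β libraries, and Dnajb7 and Dnajc5b had at most 5 counts in any library. With edgeR's quasi-likelihood test and a Benjamini-Hochberg adjusted p under 0.05 over all 14608 tested genes, 12 members were higher and 18 lower with chaetocin, and 11 were not called. The called share of 73.2% stood beside 80.7% of all tested genes, of which 42% were called higher and 38.8% lower. A call by itself therefore says little in this comparison, because most genes of the cell were called.

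The sizes of the changes were small. The median absolute log2 fold change was 0.25 over the members and 0.45 over all tested genes, and the signed medians were -0.12 and 0.02. With total counts in place of TMM scaling these signed medians were -0.002 and 0.14, a shift that this scaling gives to all genes alike. Members and all genes were not matched by level here or below, and 39 tested members were at a mean of at least 1 CPM in both groups. Only Dnajb1 was called higher with a fitted fold of at least 2, and 0 members were lower by that much, beside 19.7% and 4.88% of all genes. At a fitted fold of at least 1.5, 2 members were higher, Dnajb1 and Dnajc16, beside 26.6% of all genes, and 4 were lower, Dnajc27, Dnajc28, Dnajc22 and Dnajc6, beside 13.9%. Tested against a fold of 1.5 with glmTreat in edgeR, 1 member passed in each direction, Dnajb1 and Dnajc27, beside 23% of all genes higher and 10.2% lower. The 4 chaetocin and 4 TGF-β libraries did not overlap in 28 members, 12 higher and 16 lower, beside 74.7% of all genes. On the deposited FPKM values, tested with limma, the split was 16 higher and 13 lower, and with total counts it was 16 and 16. On FPKM the calls of Dnajb4, Dnajb12, Dnajc25 and Dnajc8 were lost, Dnajb9 changed sign, and Dnaja2, Dnajb14, Dnajc15 and Dnajc24 were called higher.

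**Figure D1:**
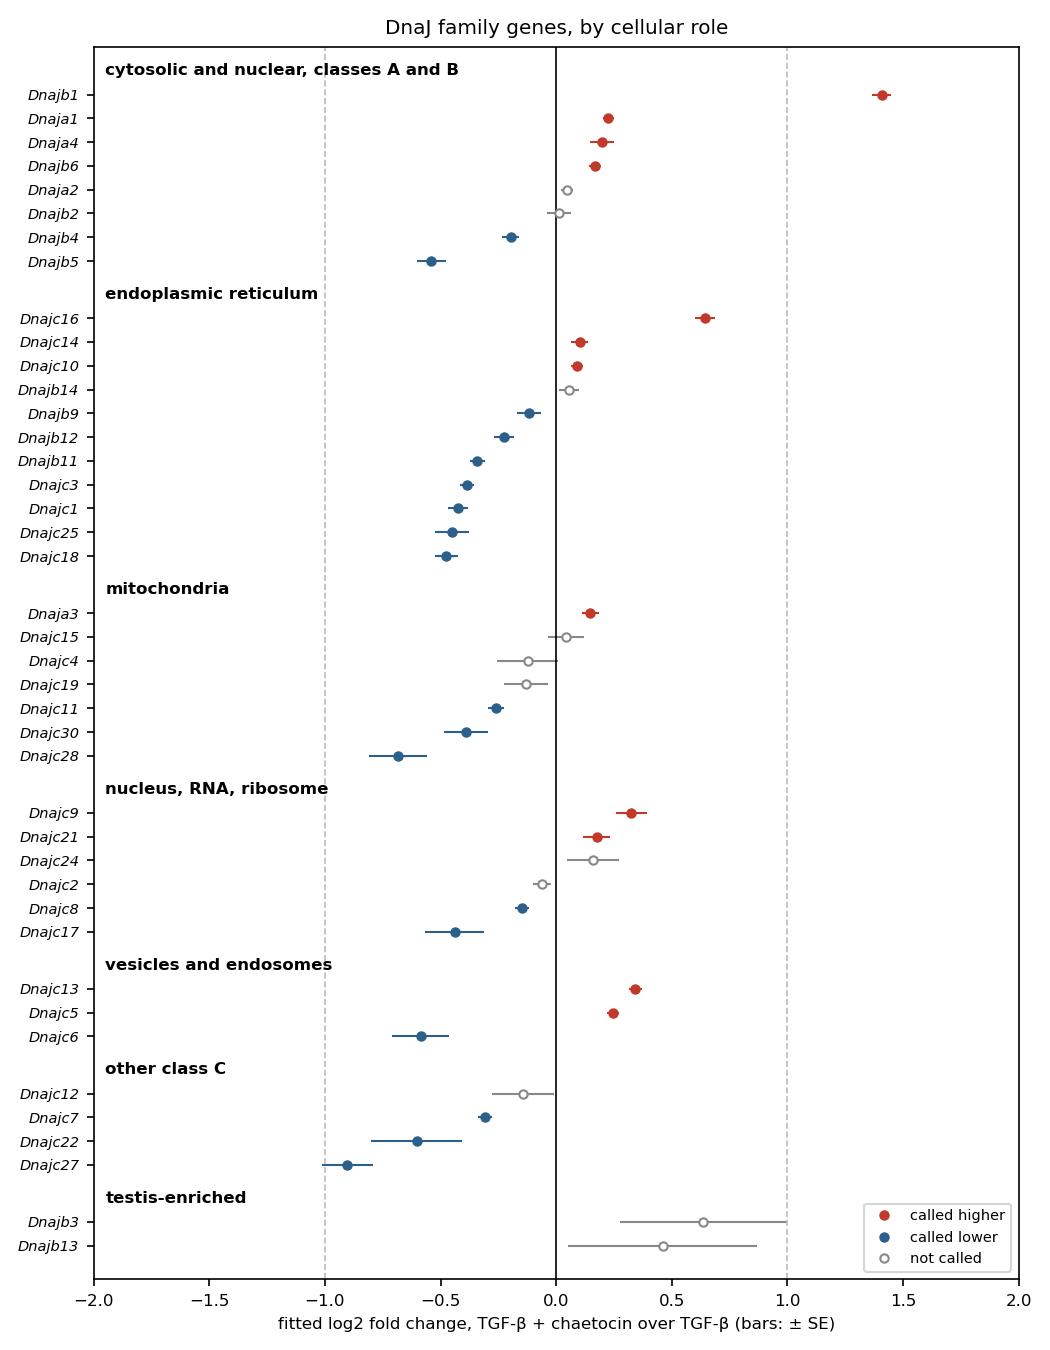
Fitted log2 fold change of the 41 tested DnaJ genes, chaetocin with TGF-β over TGF-β alone, grouped by role; bars are 1 SE and filled points are called at an adjusted p under 0.05. Dnajb1 at 1.41 stands apart from the other members, which lie between -0.90 and 0.64 on the log2 scale.

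The sequences before the starts of a few members are given first, because the heat shock element and the ER stress response element are the textbook control elements of this family. RefSeq windows on GRCm38.p6, from 250 bases before to 50 after a start, were matched by symbol for 37 of the 45 members, as 50 windows. A heat shock element was searched on both strands as 2 units, GAANNTTC or TTCNNGAA, where N is any base, and as 3 units, the same alternation of GAA and TTC carried on by 1 more unit after NN. The 3-unit form contains the 2-unit form. The 3-unit form was in 0.603% of all 32851 windows and among the members only in the 2 windows of Dnajb6, where it is the same stretch before 2 starts, 46 and 127 bases away. The 2-unit form was in 15.1% of all windows and in 8 of the 50 member windows, or 16%, from 7 members. The stretches of 30 bases from Dnajb6 (chr5:29735844-29735873, plus strand), Dnaja1 (chr4:40722333-40722362, plus strand), Dnaja4 (chr9:54699458-54699487, plus strand) and Dnajb4 (chr3:152193841-152193870, minus strand) are shown 5′ to 3′ with the match in capitals, since these are the cytosolic members that hold one.
Dnajb6: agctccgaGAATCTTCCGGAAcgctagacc
Dnaja1: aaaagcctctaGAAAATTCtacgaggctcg
Dnaja4: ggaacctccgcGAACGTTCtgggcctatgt
Dnajb4: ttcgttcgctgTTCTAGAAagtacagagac
The matches lie 124, 90 and 14 bases before 1 RefSeq start each of Dnaja1, Dnaja4 and Dnajb4. Dnaja4 has a further 2-unit match 52 bases before the same start, not shown. Dnaja1 has other RefSeq windows that hold no heat shock element. In GENCODE coordinates the matches of Dnaja1, Dnaja4 and Dnajb4 lie inside the gene bounds and not before them. With chaetocin Dnaja1, Dnaja4 and Dnajb6 were called higher and Dnajb4 was called lower, as given below. Of the other members with a 2-unit match, Dnajc10 was called higher and Dnajc5g was not tested. The remaining one, Dnajc27, was called lower and had the lowest log2 fold change of the family, at -0.90.

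Dnajb1, the member with the largest change, held neither form of the heat shock element as spelled here in its RefSeq window. Its 250 bases before the start (chr8:83607925-83608174, plus strand, 69.6% G and C) are shown with a CCAAT box, read here on the other strand as ATTGG, in capitals. That box, searched as CCAAT or ATTGG, was in 37.4% of all windows and in 19 of the 50 member windows, or 38%.
Dnajb1: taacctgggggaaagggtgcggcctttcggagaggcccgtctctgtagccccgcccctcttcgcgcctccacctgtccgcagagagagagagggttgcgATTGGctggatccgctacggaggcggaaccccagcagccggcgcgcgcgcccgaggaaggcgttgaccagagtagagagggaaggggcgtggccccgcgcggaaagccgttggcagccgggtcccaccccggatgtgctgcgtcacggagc
The ER stress response element, spelled CCAAT and CCACG with 9 unspecified bases between them, or the reverse complement CGTGG and ATTGG with the same gap, overlaps the CCAAT box. It was in 0.119% of all windows and among the members only in Dnajc3, which encodes an inhibitor of the kinase PERK in the ER. The 250 bases before the Dnajc3 start (chr14:118937682-118937931, plus strand, 73.6% G and C) carry it in capitals, 105 bases before the start.
Dnajc3: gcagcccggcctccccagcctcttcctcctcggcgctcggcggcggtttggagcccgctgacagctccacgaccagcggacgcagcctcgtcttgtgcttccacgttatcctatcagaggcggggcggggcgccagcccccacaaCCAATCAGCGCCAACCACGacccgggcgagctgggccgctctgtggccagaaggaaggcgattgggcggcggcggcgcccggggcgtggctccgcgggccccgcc
A match describes letters in a window and not binding, and other bases around each gene were not searched.

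Among the 8 general co-chaperones of classes A and B in the cytosol and nucleus, 4 were higher and 2 lower with chaetocin. This count and those of the other roles below stand beside 42% of all tested genes called higher and 38.8% called lower. Dnajb1 encodes the stress-inducible HSP40 protein of the cytosol and lies at chr8:83608193-83612653 on the plus strand (ENSMUSG00000005483). It had 113.9, 106.7, 110.3 and 116.4 CPM with chaetocin, against 45.9, 41.1, 40.95 and 40.7 CPM with TGF-β alone. Every chaetocin library was above every TGF-β library by more than the spread within either group. The means were 111.8 ± 4.24 CPM with chaetocin and 42.2 ± 2.49 CPM with TGF-β alone (SD, n = 4 each), a fold of 2.65 (log2 fold change 1.41 ± 0.04 SE; adjusted p of 5.5e-22 in edgeR). Each value rested on 1654 to 2666 counts per library with chaetocin and 798 to 999 with TGF-β alone. Its closest relatives, Dnajb4 and Dnajb5, were lower. Dnajb4 had 61.7, 63.3, 67.0 and 61.0 CPM with chaetocin and 73.5, 70.8, 69.9 and 74.9 CPM with TGF-β alone (log2 fold change -0.20 ± 0.04, edgeR adjusted p = 3.3e-05). Dnajb5 had 18.9, 18.3, 21.9 and 17.0 CPM with chaetocin and 28.6, 28.5, 26.5 and 27.1 CPM with TGF-β alone (log2 fold change -0.54 ± 0.06, edgeR adjusted p = 1.5e-08). Neither gene's groups overlapped in CPM, so the 3 related genes split in direction between the groups on this scale. On FPKM the Dnajb4 libraries overlapped, at 25.75 to 29.03 with chaetocin and 27.5 to 29.21 with TGF-β alone, and its call was lost.

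Dnaja1, Dnaja2 and Dnaja4 are the class A members of the cytosol, and they fold and sort clients with HSP70. Dnaja1, the most abundant transcript of the family per length, had 335.3, 341.6, 332.8 and 332.1 CPM with chaetocin and 291.4, 287.6, 290.6 and 278.6 CPM with TGF-β alone. Its groups were far apart relative to their spread, but the change was only 16.9% (log2 fold change 0.23 ± 0.02, edgeR adjusted p = 1.8e-09). Dnaja4 had 35.8, 35.7, 32.4 and 36.4 CPM with chaetocin and 31.5, 31.7, 29.7 and 29.6 CPM with TGF-β alone (0.20 ± 0.05, edgeR adjusted p = 8.5e-04). Its exons overlap those of Wdr61 on the opposite strand over 1581 bases, and no source used here says whether reads were assigned by strand, so reads inside the overlap cannot be told apart between these 2 genes. Dnaja2 had 241.0, 231.3, 241.2 and 235.8 CPM with chaetocin and 234.9, 226.8, 225.8 and 232.2 CPM with TGF-β alone, and these ranges overlapped. Its log2 fold change was 0.05 ± 0.03 (edgeR adjusted p = 0.0959), and it was called higher with DESeq2 size factors, total counts or FPKM. Dnajb6, which keeps aggregation-prone proteins soluble, was higher, at 167.2 ± 1.01 CPM with chaetocin and 148.8 ± 1.202 CPM with TGF-β alone (0.17 ± 0.03, edgeR adjusted p = 1.2e-06). Dnajb2, known for sorting clients to the proteasome in neurons, was at 27.5 ± 0.82 CPM with chaetocin and 27.2 ± 1.06 CPM with TGF-β alone and was not called (edgeR adjusted p = 0.816).

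**Figure D2:**
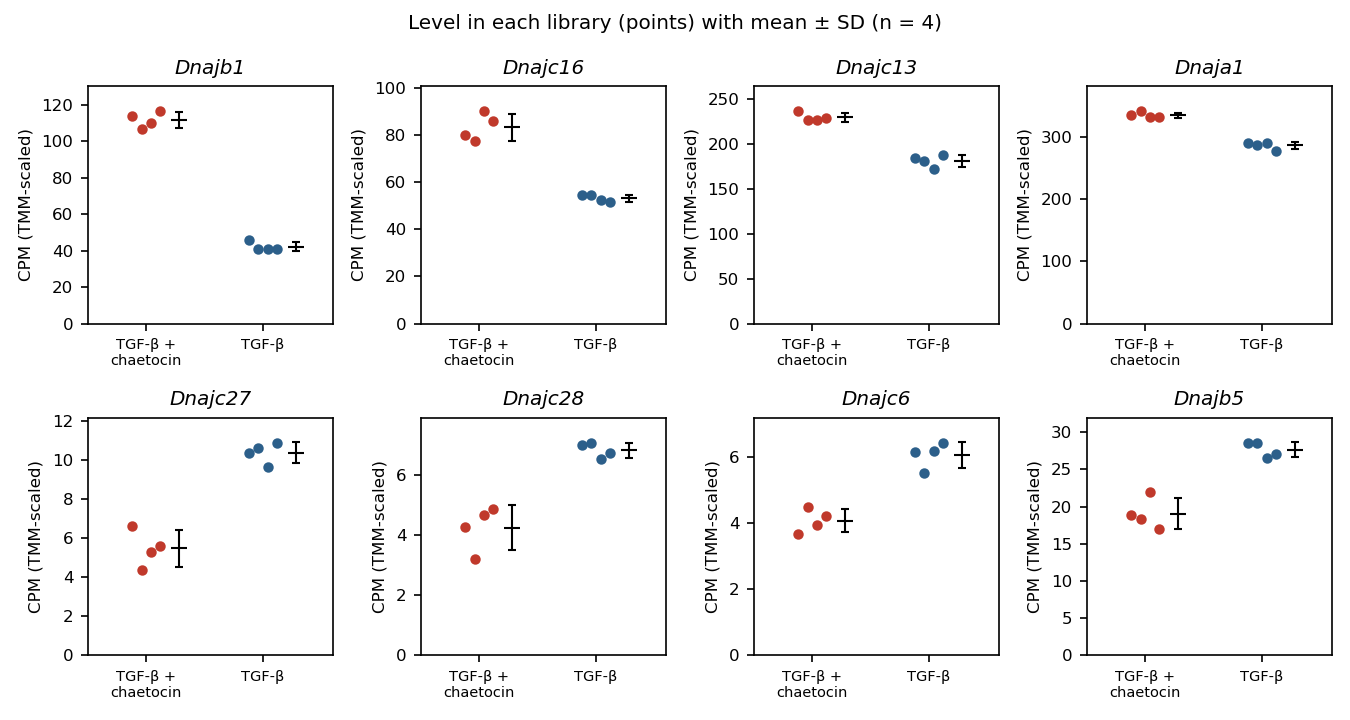
TMM-scaled CPM of 8 DnaJ genes in each library, chaetocin with TGF-β left and TGF-β alone right, with each group's mean and SD (n = 4). In Dnajb1, Dnajc16, Dnajc13 and Dnaja1 every chaetocin library lies above every TGF-β library, and in Dnajc27, Dnajc28, Dnajc6 and Dnajb5 every one lies below.

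In the ER, 3 of 11 members were higher and 7 lower with chaetocin, with a median log2 fold change of -0.23. On FPKM 4 were higher and 4 lower, with a median of -0.06, and without a filter on low counts 1 was higher and 7 lower. Dnajc16 encodes a J-domain protein of the ER membrane and lies at chr4:141760189-141790931 on the minus strand (ENSMUSG00000040697). It had 80.0, 77.6, 90.2 and 86.3 CPM with chaetocin, against 54.7, 54.5, 52.6 and 51.7 CPM with TGF-β alone. The groups did not overlap, and the means of 83.5 ± 5.76 CPM with chaetocin and 53.4 ± 1.5 CPM with TGF-β alone (SD, n = 4 each) gave a fold of 1.56 (0.64 ± 0.04 on the log2 scale; edgeR adjusted p = 9.7e-14). Against a fold of 1.5 it did not pass (glmTreat in edgeR, adjusted p = 0.0815). The other 2 higher members changed far less. Dnajc10, a disulfide reductase that unlinks misfolded proteins before their export for degradation, was at 220.7 ± 4.195 CPM with chaetocin and 207.5 ± 5.07 CPM with TGF-β alone (0.09 ± 0.03, edgeR adjusted p = 0.00278), a call that was lost without the filter (adjusted p = 0.084). Dnajc14, an ER membrane protein known from receptor transport, was at 93.2 ± 3.72 CPM with chaetocin and 86.7 ± 3.73 CPM with TGF-β alone (0.10 ± 0.04, edgeR adjusted p = 0.0123). Its call was lost without the filter, without TGF-β replicate 2 or without chaetocin replicate 3, and 1252 of its exon bases overlap Ormdl2 and Tmem198b on the opposite strand.

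Of the other soluble co-chaperones of BiP, the HSP70 of the ER lumen and also the partner of Dnajc10, Dnajc3 and Dnajb11 were lower. Dnajc3 was at 94.2, 93.8, 97.9 and 97.1 CPM with chaetocin and 123.7, 123.2, 127.3 and 125.6 CPM with TGF-β alone (log2 fold change -0.39 ± 0.03, edgeR adjusted p = 2.5e-12). Dnajb11, which binds unfolded secretory proteins, had 79.1, 83.3, 82.7 and 83.3 CPM with chaetocin and 100.4, 103.2, 106.7 and 105.2 CPM with TGF-β alone (-0.34 ± 0.03, edgeR adjusted p = 2.1e-10). Both genes were lower in all 4 chaetocin libraries. Dnajb9, a BiP co-chaperone that feeds degradation and also restrains the stress sensor IRE1, had 32.2, 36.9, 35.7 and 38.3 CPM with chaetocin and 38.9, 38.9, 39.6 and 37.0 CPM with TGF-β alone. These ranges overlapped, and the call was at the threshold (-0.12 ± 0.05, edgeR adjusted p = 0.0416) and was lost with DESeq2, with total counts and when any of 5 single libraries was left out. The sign turned on FPKM, at 0.03 to 0.04, and in the authors' deposited table, where the log2 ratio was 0.04 at an FDR of 0.126.

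Dnajb12, Dnajb14 and Dnajc18 are ER membrane members with their J-domain facing the cytosol, and they were not all called. Dnajb12, which works with cytosolic HSP70 in membrane protein degradation, had 55.5, 58.1, 57.1 and 58.9 CPM with chaetocin and 70.8, 68.3, 68.7 and 60.9 CPM with TGF-β alone (log2 fold change -0.23 ± 0.04, edgeR adjusted p = 2.7e-05). Its relative Dnajb14 had 49.1, 49.7, 50.9 and 49.7 CPM with chaetocin and 48.5, 49.7, 44.2 and 49.3 CPM with TGF-β alone, which overlap, and it was not called (0.05 ± 0.04, edgeR adjusted p = 0.242). Dnajc18, a further relative of Dnajb12, was lower at 24.8 ± 0.68 CPM with chaetocin and 34.5 ± 1.01 CPM with TGF-β alone (-0.48 ± 0.05, edgeR adjusted p = 1.4e-09). The paired genes Dnajb12 and Dnajb14 thus gave a call and no call, and whether their changes differ was not tested. Outside these relatives, Dnajc1, an ER membrane protein that binds ribosomes, was at 38.9 ± 1.40 CPM with chaetocin and 52.1 ± 1.75 CPM with TGF-β alone (-0.42 ± 0.04, edgeR adjusted p = 9.6e-10). Dnajc25 was at 11.99 ± 0.79 CPM with chaetocin and 16.3 ± 0.43 CPM with TGF-β alone (-0.45 ± 0.07, edgeR adjusted p = 2.4e-06).

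Of the 7 mitochondrial members, 1 was higher, 3 were lower and 3 were not called. Dnaja3, the class A co-chaperone of the mitochondrial matrix, was higher at 59.1 ± 1.35 CPM with chaetocin and 53.3 ± 1.83 CPM with TGF-β alone (log2 fold change 0.15 ± 0.04, edgeR adjusted p = 0.00108). Dnajc28 had 4.27, 3.195, 4.67 and 4.85 CPM with chaetocin and 6.98, 7.06, 6.52 and 6.73 CPM with TGF-β alone, groups that did not overlap (-0.68 ± 0.13, edgeR adjusted p = 2.2e-05). Dnajc11, a protein of the complexes that shape the inner membrane, was at 69.1 ± 2.25 CPM with chaetocin and 82.7 ± 1.85 CPM with TGF-β alone (-0.26 ± 0.03, edgeR adjusted p = 1.2e-07). Dnajc30, known for the repair of respiratory complex I, was at 9.38 ± 1.37 CPM with chaetocin and 12.2 ± 0.95 CPM with TGF-β alone (-0.39 ± 0.10, edgeR adjusted p = 5.8e-04), with overlapping libraries. Of its 1661 exon bases, 436 overlap Bud23 on the opposite strand, and reads there cannot be told apart without knowing the use of strand. The mitochondrial calls thus ran in both directions. Dnajc15 and Dnajc19 encode J-proteins at the import motor of the inner membrane. Dnajc15 had 13.5, 12.6, 14.1 and 13.3 CPM with chaetocin and 14.4, 13.0, 12.6 and 11.8 CPM with TGF-β alone (edgeR adjusted p = 0.626). Dnajc19 had 7.56, 9.46, 8.14 and 8.29 CPM with chaetocin and 8.77, 9.74, 8.89 and 9.02 CPM with TGF-β alone (edgeR adjusted p = 0.211). Both overlapped between the groups and were not called, nor was Dnajc4, at 4.62 ± 0.76 CPM with chaetocin and 5.01 ± 0.25 CPM with TGF-β alone (edgeR adjusted p = 0.392).

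Among the 6 members tied to the nucleus, RNA or the ribosome, 2 were higher and 2 lower. Dnajc9, a histone co-chaperone, had 19.2, 18.5, 17.9 and 20.5 CPM with chaetocin and 15.2, 16.5, 14.9 and 14.4 CPM with TGF-β alone, without overlap (log2 fold change 0.33 ± 0.07, edgeR adjusted p = 7.9e-05). Dnajc21, needed to build the large ribosomal subunit, was at 24.6 ± 0.39 CPM with chaetocin and 21.8 ± 1.37 CPM with TGF-β alone (0.17 ± 0.06, edgeR adjusted p = 0.00705). On the lower side stood 2 splicing-related genes. Dnajc8 was at 98.7 ± 1.20 CPM with chaetocin and 109.3 ± 2.93 CPM with TGF-β alone (-0.15 ± 0.03, edgeR adjusted p = 8.2e-05), and its call was lost with total counts. Dnajc17 was at 4.40 ± 0.71 CPM with chaetocin and 5.92 ± 0.19 CPM with TGF-β alone (-0.44 ± 0.13, edgeR adjusted p = 0.00295). The ribosome-bound co-chaperone gene Dnajc2 (75.3 ± 3.38 CPM with chaetocin and 78.8 ± 3.67 CPM with TGF-β alone) and Dnajc24, of the diphthamide pathway (6.90 ± 0.46 CPM with chaetocin and 6.22 ± 0.69 CPM with TGF-β alone), were not called.

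The vesicle members were split between abundant genes that were higher and a scarce one that was lower. Dnajc13, a J-protein of endosomes, had 235.8, 226.0, 226.2 and 228.5 CPM with chaetocin and 184.2, 180.6, 171.3 and 186.9 CPM with TGF-β alone (log2 fold change 0.34 ± 0.03, edgeR adjusted p = 1.1e-11). Dnajc5, the cysteine string protein of secretory vesicles, had 363.6, 359.0, 356.9 and 361.1 CPM with chaetocin and 313.6, 297.9, 293.2 and 310.0 CPM with TGF-β alone (0.25 ± 0.02, edgeR adjusted p = 7.0e-10). Neither overlapped between the groups. Dnajc6, which encodes auxilin, the uncoating factor of clathrin-coated vesicles, had 3.67, 4.47, 3.94 and 4.21 CPM with chaetocin and 6.16, 5.52, 6.17 and 6.42 CPM with TGF-β alone (-0.59 ± 0.12, edgeR adjusted p = 1.1e-04). Gak, which encodes the broadly expressed relative of auxilin and whose symbol the rule does not match, was at 179.3 ± 3.33 CPM with chaetocin and 183.7 ± 4.03 CPM with TGF-β alone and was not called (edgeR adjusted p = 0.214).

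Of the 4 other class C members 3 were lower. Dnajc27 encodes a RAB-like small GTPase with a J-domain and lies at chr12:4082583-4110606 on the plus strand (ENSMUSG00000020657). It had 6.62, 4.35, 5.27 and 5.61 CPM with chaetocin, against 10.4, 10.6, 9.63 and 10.9 CPM with TGF-β alone. The groups did not overlap, and the inverse fold was 1.87 (log2 fold change -0.90 ± 0.11, edgeR adjusted p = 2.9e-08; against a fold of 1.5, glmTreat adjusted p = 0.00304). Without chaetocin replicate 1 the log2 fold change was -1.03, which would count as a fold of at least 2. Dnajc22 had 1.54, 1.34, 2.07 and 1.47 CPM with chaetocin and 2.16, 2.42, 2.82 and 2.33 CPM with TGF-β alone, so that the nearest libraries of the groups lay at 2.07 and 2.16 CPM (-0.60 ± 0.20, edgeR adjusted p = 0.0063). Dnajc7, a co-chaperone that bridges HSP70 and HSP90, was lower in every chaetocin library, at 100.3, 102.8, 97.9 and 99.1 CPM, against 126.0, 124.1, 122.2 and 123.2 CPM with TGF-β alone (-0.31 ± 0.03, edgeR adjusted p = 2.0e-10). Dnajc12, a partner of the aromatic amino acid hydroxylases, was at 5.58 ± 0.90 CPM with chaetocin and 6.14 ± 0.92 CPM with TGF-β alone and was not called (edgeR adjusted p = 0.321). The testis genes Dnajb13 (0.63 ± 0.30 CPM with chaetocin and 0.44 ± 0.24 CPM with TGF-β alone) and Dnajb3 (0.71 ± 0.17 CPM with chaetocin and 0.45 ± 0.21 CPM with TGF-β alone) were tested and not called.

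Levels of different genes were compared as deposited FPKM, fragment counts scaled by gene length and depth. The order was led in both groups by Dnaja1, at 185.0 ± 4.06 FPKM with chaetocin and 149.6 ± 5.39 FPKM with TGF-β alone. With chaetocin Dnajc5, Dnajb6, Dnaja2 and Dnajc8 followed at means of 105.7, 86.9, 84.5 and 76.0 FPKM, and with TGF-β alone Dnajc8, Dnaja2, Dnajb6 and Dnajc7 followed at 77.6, 75.7, 72.0 and 69.6 FPKM. Dnajc8 at 74.8 to 81.9 FPKM is not apart from its neighbour Dnaja2 in TGF-β cells by more than the spread of these libraries. Dnajb1 stood at place 9 with chaetocin (37.1 to 40.4 FPKM) and at place 20 with TGF-β alone (13.1 to 14.7 FPKM). At the low end, Dnajc27, Dnajc28, Dnajc22 and Dnajc6, the 4 members called lower by a fold of at least 1.5, had means of 0.98 to 1.41 FPKM with chaetocin and 1.41 to 2.28 FPKM with TGF-β alone, below every other tested member outside the testis list. Summed over the family the level was 1131 to 1141 FPKM with chaetocin and 1004 to 1020 FPKM with TGF-β alone, and the summed CPM was 2874 to 2907 with chaetocin and 2713 to 2800 with TGF-β alone. Dnaja1 alone made up 16.0 to 16.7% of the summed FPKM with chaetocin and 14.1 to 15.1% with TGF-β alone.

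**Figure D3:**
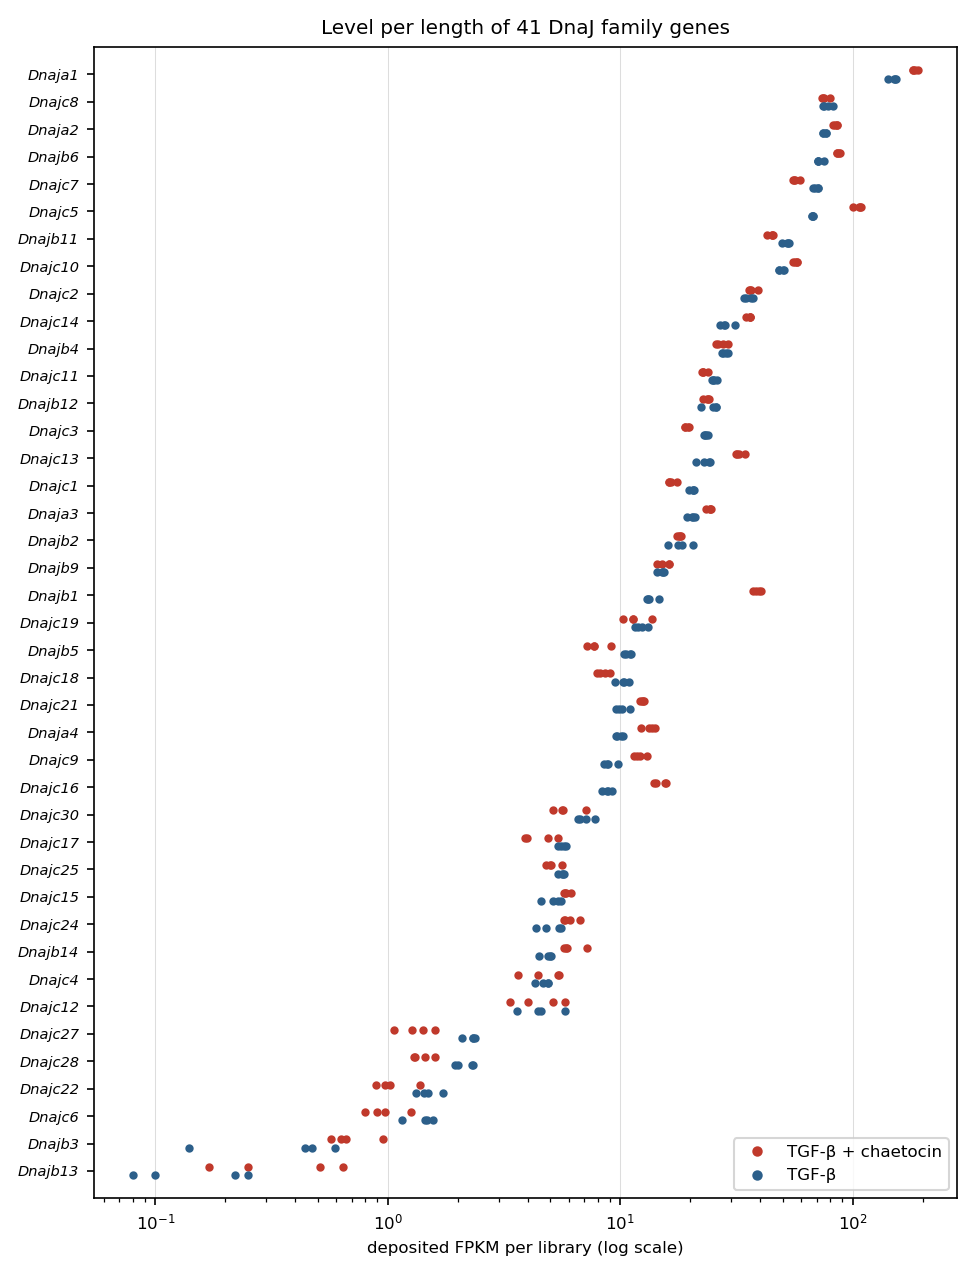
Deposited FPKM of the 41 tested DnaJ genes on a log axis, chaetocin with TGF-β and TGF-β alone, each point 1 library. Dnaja1 is highest in all 8 libraries, 7 genes have a mean over 50 FPKM in each group, and Dnajb1 is at place 9 with chaetocin and at place 20 with TGF-β alone.

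Ratios within a library do not depend on its scaling, but FPKM ratios carry the deposited lengths, which vary between libraries in several genes. The FPKM of Dnajb1 relative to Dnajb4 was 1.32 to 1.57 with chaetocin and 0.447 to 0.513 with TGF-β alone, so Dnajb1 was the more abundant of the pair only in chaetocin libraries. Relative to Dnajb5 it was 4.18 to 5.64 with chaetocin and 1.19 to 1.33 with TGF-β alone. In the ER, Dnajc16 relative to Dnajc3 was 0.735 to 0.793 with chaetocin and 0.354 to 0.398 with TGF-β alone, and Dnajb9 relative to Dnajb11 was 0.336 to 0.358 with chaetocin and 0.274 to 0.304 with TGF-β alone. Dnaja1 relative to Dnaja2 was 2.12 to 2.31 with chaetocin and 1.85 to 2.05 with TGF-β alone. The libraries of the 2 groups did not overlap in any of these 5 ratios. The pairs were chosen with the results known. Dnajb1 and Dnajc16 were called higher and Dnajb4, Dnajb5 and Dnajc3 lower in the same libraries. The ratios therefore describe those calls again and are no separate support.

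J-domain proteins act through HSP70, and 11 HSP70 family genes were tested, of which 8 were higher and 2 lower, with a median log2 fold change of 0.59. Of all tested genes 42% were called higher and 38.8% lower, with a median of 0.02. The inducible pair Hspa1a and Hspa1b was at 93.2 ± 5.69 and 177.0 ± 8.15 CPM with chaetocin and 12.8 ± 0.95 and 68.7 ± 3.41 CPM with TGF-β alone (log2 fold changes 2.86 and 1.36), and as near-identical copies they can exchange reads. Hspa1l, from the same cluster, was at 10.1 ± 1.30 CPM with chaetocin and 1.24 ± 0.22 CPM with TGF-β alone (3.03). Hspa2 was at 81.4 ± 2.95 CPM with chaetocin and 26.4 ± 1.05 CPM with TGF-β alone (1.63) and Hspa12a at 9.28 ± 1.07 CPM with chaetocin and 3.35 ± 0.67 CPM with TGF-β alone (1.46). These 5 genes were the HSP70 members with a fold of at least 2, the class that Dnajb1 alone reached in the DnaJ family. Of all tested genes 19.7% were called higher by that much. The constitutive partner of the cytosol, Hspa8, was at 3111 ± 59.6 CPM with chaetocin and 2068 ± 39.4 CPM with TGF-β alone (0.59 ± 0.02, edgeR adjusted p = 4.6e-20), and the mitochondrial Hspa9 at 818.4 ± 15.2 CPM with chaetocin and 730.6 ± 13.7 CPM with TGF-β alone (0.16 ± 0.02, edgeR adjusted p = 1.2e-07). Hspa5, which encodes BiP and is the partner of Dnajb9, Dnajb11, Dnajc3 and Dnajc10, was lower, at 615.6 ± 8.08 CPM with chaetocin and 935.7 ± 17.9 CPM with TGF-β alone (-0.60 ± 0.02, edgeR adjusted p = 8.3e-20). The other lower gene was the ER-associated Hspa13 (-0.76), the ribosome-associated Hspa14 was higher (0.41), and Hspa12b was not called.

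Of 13 nucleotide exchange factors of HSP70, 4 were higher and 5 lower, beside 42% and 38.8% of all tested genes. Hsph1, of the cytosol, reached 257.0 ± 4.97 CPM with chaetocin and 115.1 ± 3.89 CPM with TGF-β alone (log2 fold change 1.16 ± 0.03, edgeR adjusted p = 1.3e-23), and its relatives Hspa4 and Hspa4l had log2 fold changes of 0.41 and 0.30. The mitochondrial Grpel2 had 0.24. The 5 lower genes were Bag5 (-0.87), Bag2 (-0.58), the ER factor Hyou1 (-0.53), Hspbp1 (-0.35) and Bag1 (-0.09), and Bag3, Bag4, Grpel1 and Sil1 were not called. Among 3 J-domain genes reported here whose symbols the rule does not match, Sec63, the J-protein of the ER translocon, was lower at 180.3 ± 7.36 CPM with chaetocin and 265.9 ± 5.27 CPM with TGF-β alone (-0.56 ± 0.03, edgeR adjusted p = 2.7e-16). Gak and Hscb, of iron-sulfur cluster assembly, were not called. The transcript of the heat shock factor Hsf1 was at 29.6 ± 1.30 CPM with chaetocin and 30.7 ± 1.61 CPM with TGF-β alone and was not called (-0.05 ± 0.05, edgeR adjusted p = 0.427), and Hsf2 was not called either (0.11 ± 0.05, edgeR adjusted p = 0.0519), but it was called higher in 9 of the 19 settings tried. Hsf4 and Hsf5, both at means under 1 CPM, did not pass the filter. Hsf4 had 6 to 20 counts per library with chaetocin and 4 to 6 with TGF-β alone. Hsf5 had 7 to 20 counts with chaetocin and 1 to 4 with TGF-β alone. They were called higher in each of the 8 and 10 settings that tested them. Those settings loosened or dropped the filter and refitted the same libraries, so their number is no repeated support. Where a count filter was kept, both genes passed it through the chaetocin libraries, where they were high. Being tested was thus tied to being high with chaetocin, and these calls are no support for a change.

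**Figure D4:**
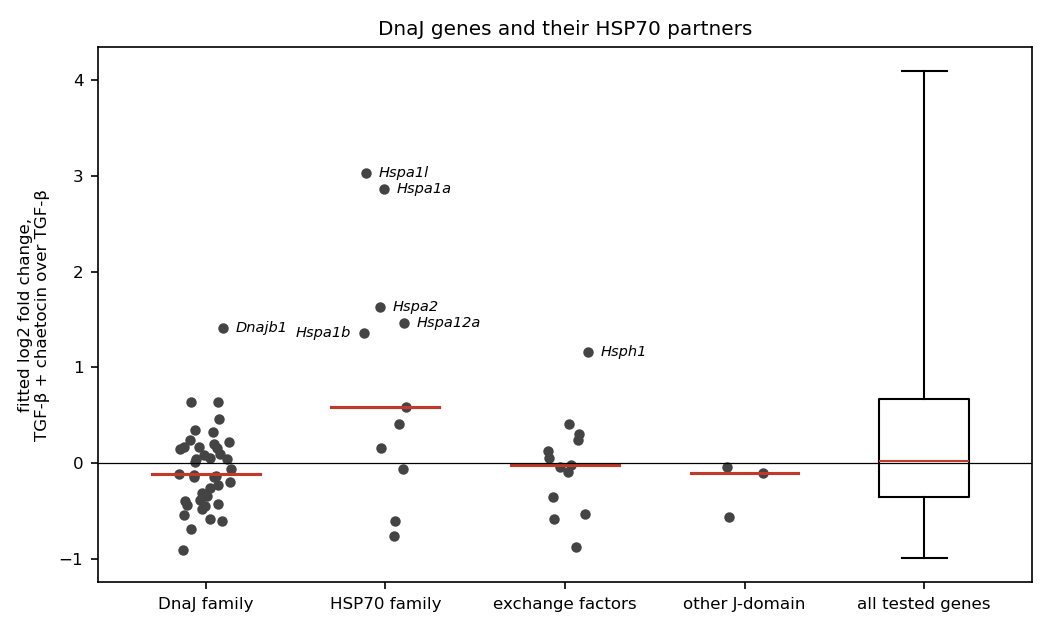
Log2 fold changes of DnaJ genes, HSP70 genes, exchange factors and 3 other J-domain genes, each point 1 gene and red lines list medians, with a box of all 14608 tested genes whose whiskers span the 5th to 95th percentile. The DnaJ genes centre at -0.12 and the HSP70 genes at 0.59, beside 0.02 for all genes.

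The deposited FPKM values carry a length for each gene and library, obtained here as the count divided by the total count and the FPKM. For Dnaja2 it was 2919 bases in all 8 libraries, and in several genes with more than 1 annotated transcript it varied between libraries. This measure was examined after the data were seen. Over 9920 genes with a mean count of at least 100, a mean FPKM of at least 1 and 2 or more GENCODE transcripts, limma called 464 shorter and 137 longer with chaetocin, together 6.06%. Of 33 tested DnaJ genes, 4 were shorter and 1 longer. Dnajc5 (chr2:181520485-181555133, plus strand, ENSMUSG00000000826, 6 annotated transcripts) had 3542, 3456, 3680 and 3501 bases with chaetocin, against 4439, 4238, 4246 and 4470 bases with TGF-β alone. The groups did not overlap, and the log2 ratio was -0.29 ± 0.03 (limma adjusted p = 0.0033). Its log2 ratio of mean FPKM was 0.66, and its fitted log2 fold change in counts was 0.25 with TMM scaling and 0.36 with total counts. Dnajc7 went the other way, with 1843, 1812, 1832 and 1842 bases with chaetocin and 1695, 1682, 1717 and 1748 bases with TGF-β alone (0.10 ± 0.01, limma adjusted p = 0.0095).

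**Figure D5:**
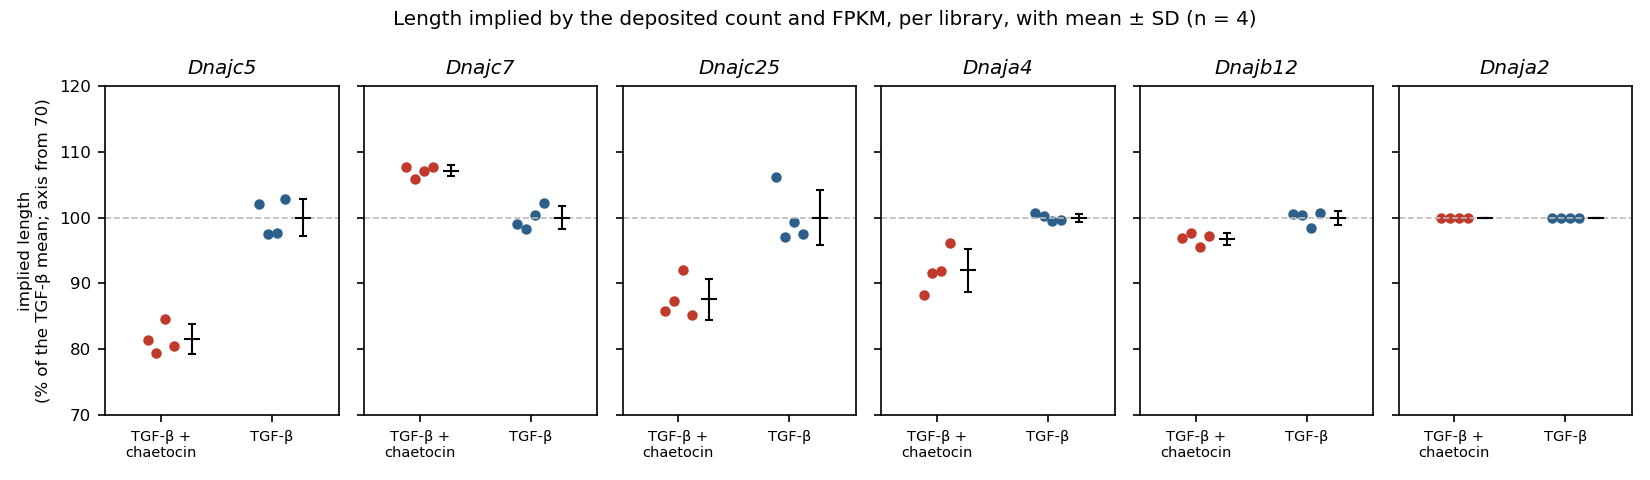
Length implied by count and FPKM for DnaJ genes in each library, in percent of the TGF-β mean, chaetocin with TGF-β left and TGF-β alone right; the axis starts at 70%. The 4 chaetocin libraries of Dnajc5 lie below its 4 TGF-β libraries, and those of Dnajc7 above.

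Both calls held when any single library was left out, with limma adjusted p of 0.00558 to 0.0147 for Dnajc5 and 0.0099 to 0.0342 for Dnajc7. The calls of Dnajc25 (-0.19), Dnaja4 (-0.12) and Dnajb12 (-0.05), all shorter, each held without 1 of the 8 libraries and were lost without any of the other 7. How the deposited FPKM lengths were set, and which transcripts differ, is not stated in the labels or the table.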

How the data were processed

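Per the labels, an RNeasy kit and a SMARTER mRNA-Seq library kit were used, and per the submitters' processing notes the build was GRCm38 (mm10). No source used here names the aligner, the counter, the annotation or the use of strand. The authors' table, per the file headers, gives raw read counts and FPKM per gene and library, their mean FPKM, the log2 ratio, and p-value and FDR columns from a test that is not named. The per-sample columns of other samples numbered 0. Counts are not normalized, and FPKM values are divided by length and depth. By the FDR of the authors' deposited table, 29 members were under 0.05, and all 29 were called here. Of the 41 tested members, 37 had the same sign in both sources.

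Counts were tested over all genes with edgeR 4.0.16 in R 4.3.3 (filterByExpr, TMM, quasi-likelihood F test, Benjamini-Hochberg adjustment), and the SE is the size of the log2 fold change divided by the square root of F. CPM values are TMM-scaled. With 4 against 4 libraries an exact permutation test of 1 gene cannot give less than 0.0286, so none is printed. In simulated counts most known changes were recovered, but these were set larger than most member changes given here, so smaller changes are not covered. FPKM and the implied length were tested with limma 3.58.1 on a log2 scale (pseudocount 1 for FPKM), and DESeq2 1.42.0 was an alternative. All replicate pairs differed by more than sampling noise (chi-square per gene 2.04 to 2.61). Coordinates and overlaps are from GENCODE M21 on GRCm38, with 17 members overlapping an exon on the opposite strand, and promoter sequences from RefSeq GRCm38.p6. Values in every library are given for members with a fold of at least 1.5 and for fixed pairs of relatives. Members and lists were chosen with earlier results of these data known, and partners outside that rule, and a few further members, were given in full after their values were seen. A further J-domain gene of the partner lists was left out and is not reported here.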

Additional observations from a re-analysis of the deposited data

Results flagged for a closer look

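In 3 of 82 groups of 4 libraries, 1 library lay far from the other 3 relative to the range of the group, and chance alone flags about 1 group in 20. Dnajb1 was at 45.9 CPM in TGF-β replicate 1, and the other 3 TGF-β libraries were at 40.7 to 41.1 CPM. The value is below every chaetocin library. Dnajb11 was at 79.1 CPM in chaetocin replicate 1, the deepest of its group, and the others were at 82.7 to 83.3 CPM. Dnajc14 was at 81.1 CPM in TGF-β replicate 2 and at 88.1 to 89.0 CPM in the other 3, and its call was lost without that library.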

How the results depend on the processing

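In the alternatives on counts, the 30 called members kept their sign, and Dnajb2, Dnajc2 and Dnajc15, which were not called, changed sign in some. On FPKM the called Dnajb9 reversed, at 0.0337 (pseudocount 1, with and without a filter) and 0.0356 (pseudocount 0.1). Over single members 691 values kept their side of the threshold, with changes of sign only where no call was involved. A further 22 gained and 26 lost a call, and 3 reversed. Replicate numbers did not pair the libraries (correlations of same-numbered deviations -0.0166 to 0.0356), and the replicate block gave 12 higher and 18 lower members, as without it, but 1 heat shock factor, Hsf2, higher. The factor count was also 1 with DESeq2 size factors, total counts, a 1 CPM filter and both filtered FPKM fits, 2 without a filter and with DESeq2, 3 on unfiltered FPKM, and 1 to 3 with a library left out. Against a fold of 1.5, 2 members were higher with DESeq2 size factors, total counts or a 1 CPM filter and 1 to 2 with a library left out, and members lower by a fold of 2 were 0 to 1 then. With total counts and on FPKM, 1 nuclear or ribosomal member was lower, and 7 exchange factors and 1 other J-domain gene were higher. Without a filter 1 ER member was higher and 2 other J-domain genes lower. On FPKM, 1 cytosolic and 4 ER members were lower, 2 mitochondrial were higher and, unfiltered, 1 testis member was higher. Shorter implied lengths numbered 1 to 4 with a library left out, an alternative added after seeing the data. The causes were not tested. Depth limits the 4 untested members and Dnajb3 and Dnajb13, all under 1 CPM.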
